A study of Homo sapiens with 4 samples.

Results

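The DEAD-box and DEAH-box RNA helicases are the genes whose symbols are DDX or DHX followed by a number, with an A or B allowed after a DDX number. From the 38972 rows deposited, 51 were kept, 35 with DDX and 16 with DHX symbols. Pseudogenes, antisense and divergent transcripts, DDX3X, DDX3Y and 1 further DDX symbol were left out by the choice of symbols. RNA was sequenced from HEK293T cells, an established line of human embryonic kidney cells that carries the SV40 large T antigen. Per the sample titles and design text, Flag, an epitope tag serving as the control, was overexpressed in 2 libraries, and RNase H1, which cuts the RNA strand of RNA-DNA hybrids, was overexpressed in the other 2. How the proteins were expressed, for how long, and whether the 2 libraries of a group came from separate cultures is not given in the sources used here, so p-values measure only the spread between these libraries, which may be technical.

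RNA helicases of these families bind RNA and use ATP to pull strands apart or to strip proteins from RNA. Their names come from the residues of a conserved ATP-binding motif, Asp-Glu-Ala-Asp in DEAD-box proteins and Asp-Glu-Ala-His in DEAH-box proteins. DEAD-box proteins mostly open short duplexes locally, whereas DEAH-box proteins move along a strand, and both kinds are needed at nearly every step of RNA metabolism, from splicing and ribosome synthesis to export, translation and decay. Several of them have also been reported to unwind RNA-DNA hybrids, the substrate of RNase H1.

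RNASEH1, the gene for RNase H1, had levels of 32.09 and 32.8 TPM under the Flag label and of 29.93 and 29.67 TPM under the RNase H1 label. TPM is a gene's length-corrected share of its library. The listed RNASEH1 level thus goes against the label, so groups are named by their labels, and "higher" and "lower" mean RNase H1 set against Flag. Whether RNA of the overexpressed gene was counted in this row is not given in the sources used here. In what follows, "under Flag" and "under RNase H1" stand for the libraries with those labels. Of 6 genes used as HEK293T markers, 6 had a mean of at least 1 TPM, and they summed to 179 and 180 TPM under Flag and to 163 and 166 TPM under RNase H1. Markers of fibroblasts, lymphocytes, epithelium and hepatocytes each had 1 gene at that level. The sequencing depth is unknown, since TPM does not keep it.

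Nearly all of these helicases were expressed, and most at high levels. The minimum for testing, a mean over the libraries of 1 TPM, was reached by 47 members, a mean of 10 TPM by 45 and one of 100 TPM by 14. The median level was 65.8 TPM, against 15.9 TPM over all 15651 tested genes. Together the members made up 0.512% and 0.506% of the listed TPM in the libraries labelled Flag and 0.514% and 0.515% in those labelled RNase H1. Both libraries labelled RNase H1 thus lay above both labelled Flag, by a gap smaller than the difference between the Flag libraries.

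The order of levels was led by helicases of nuclear RNA processing and export. DDX39B, the export and splicing factor UAP56, had the highest mean at 593 TPM. DDX5 (p68), a cofactor of transcription, splicing and microRNA processing, followed at 542 TPM, and its paralog DDX17 (p72) at 383 TPM. DHX9, RNA helicase A, was listed at 364 and 377.23 TPM under Flag and at 374.12 and 375.96 TPM under RNase H1. The replicate ranges of DDX17 and DHX9 overlap, so no order between these 2 is given. DHX15, which dismantles spliceosomes, stood at 242 TPM and DDX21, a nucleolar helicase, at 202 TPM.

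**Figure D1:**
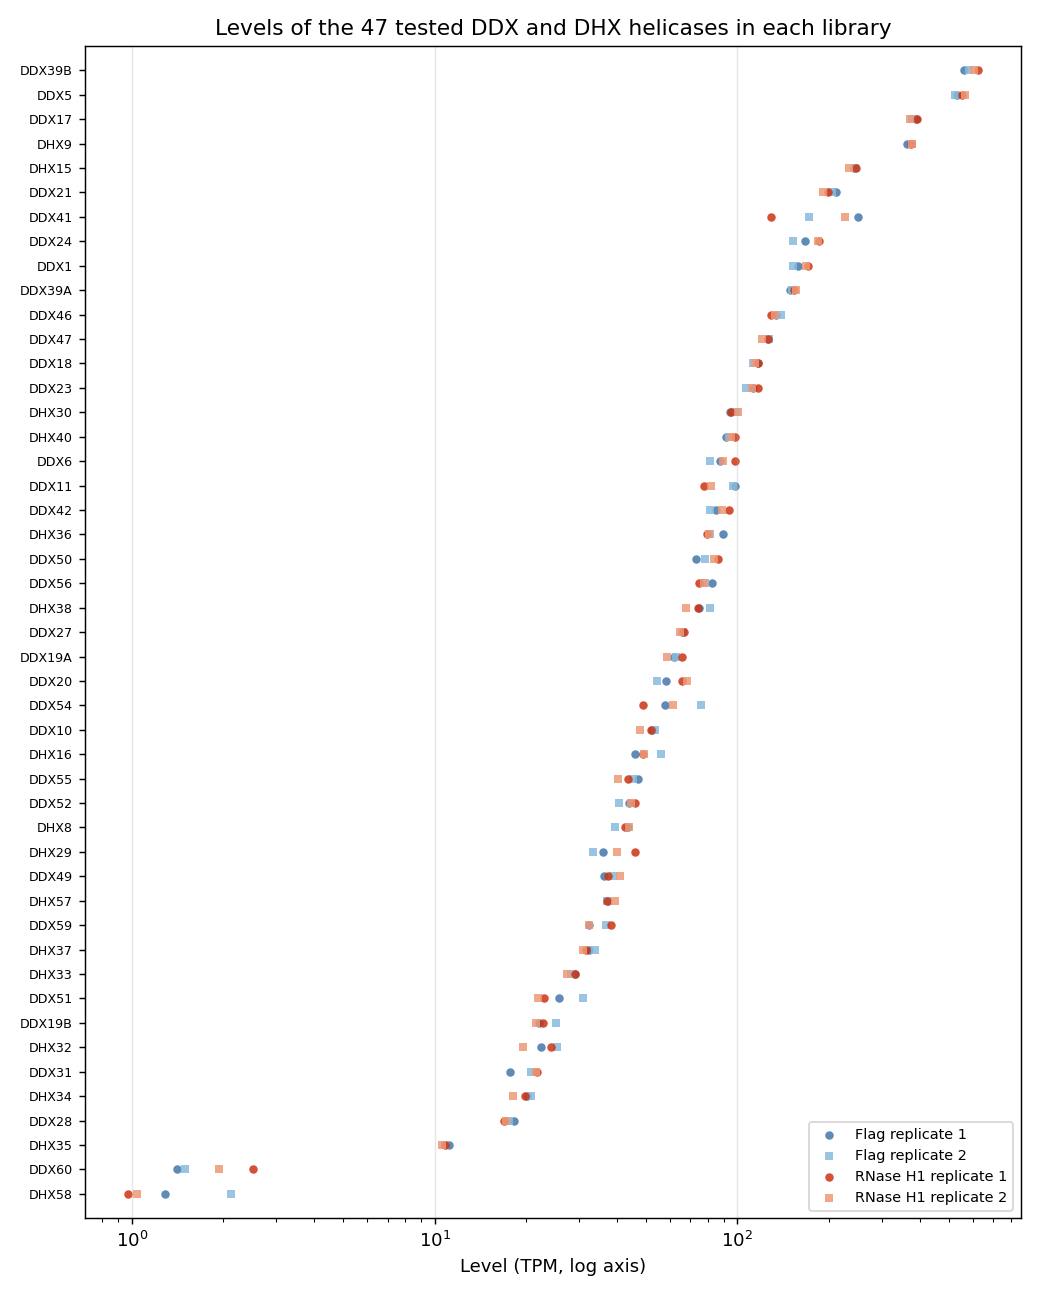
Level of each tested helicase (TPM, log axis) in the 4 libraries, ordered by mean level from DDX39B to DHX58. Blue symbols are the libraries labelled Flag, red symbols those labelled RNase H1, circles replicate 1 and squares replicate 2; the 4 symbols of most genes lie on top of each other, and DDX41 is spread from 129.21 to 250.22 TPM.

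At the other end were helicases of germ cells and innate immunity. DDX4, the germ cell helicase VASA, was listed at 0.03 and 0.25 TPM under Flag and at 0.42 and 0.03 TPM under RNase H1. DDX25, a testis helicase, stood at 0.3, 0.27, 0.28 and 0.26 TPM in the same order. The cancer-testis genes DDX43 and DDX53 did not exceed 0.07 TPM in any library. These 4 genes did not reach the minimum and were not tested. The lowest tested members were DHX58 at 1.36 TPM, DDX60 at 1.84 TPM, DHX35 at 10.8 TPM and DDX28 at 17.5 TPM.

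Of the 47 tested helicases, 1 passed the test, and it was lower (limma, a moderated linear model on log2(TPM + 1), adjusted p under 0.05). Over all tested genes 11.8% passed, 6.3% higher and 5.54% lower, and among tested genes of at least 10 TPM 16.3% passed. At an unadjusted p under 0.05 stood 9 members, 7 higher and 2 lower, which is 19.1% of those tested against 31.3% of all tested genes (16.2% higher and 15.1% lower) and 39.2% of those of at least 10 TPM. The 2 libraries of one group lay wholly above or below those of the other in 27 members, 14 higher and 13 lower, or 57.4% against 60.7% of all tested genes (31.3% higher and 29.4% lower) and 66.6% of those of at least 10 TPM. The members' shares past both p thresholds were below these backgrounds, and the share without overlap was near that of all tested genes.

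The differences were small in both directions. The median log2 fold change of the tested members was -0.000388, with 23 estimates above 0 and 24 below, and the median over all tested genes was 0.00347. In size the median was 0.08 for the members, 0.17 for all tested genes and 0.14 for tested genes of at least 10 TPM. The median standard error was 0.07 for the members and 0.07 for tested genes of at least 10 TPM. The 95% interval of the difference lay within 1.5-fold either way in 43 members and within 1.3-fold in 37. These intervals are on the log2(TPM + 1) scale, and a missed threshold does not show that levels were equal.

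**Figure D2:**
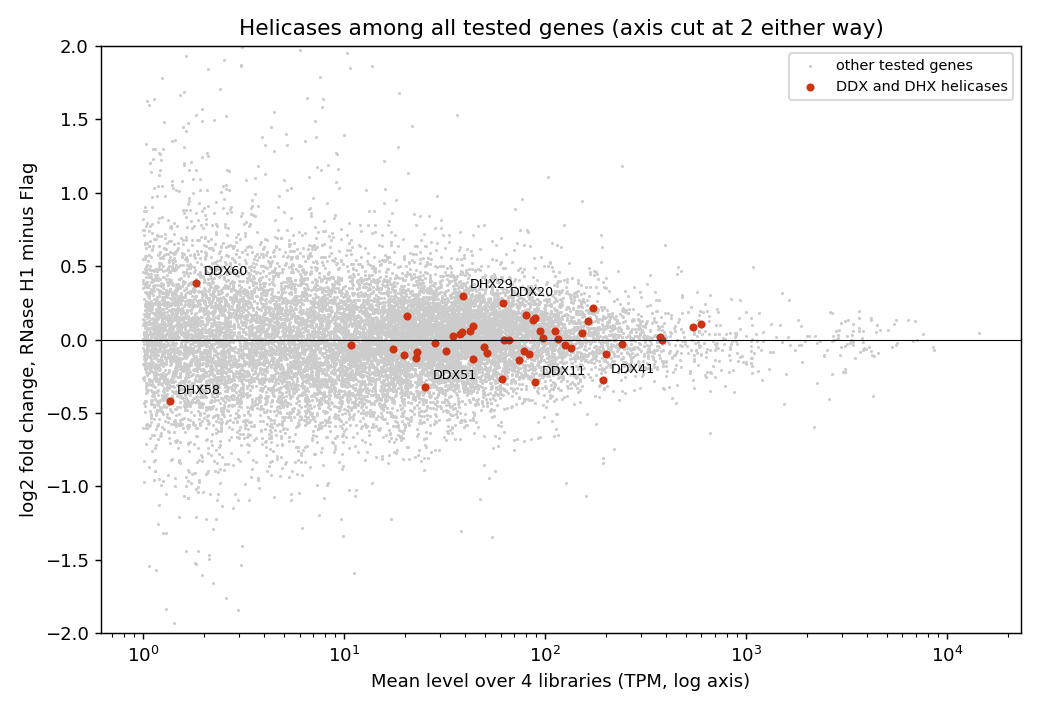
Log2 fold change (RNase H1 minus Flag) against mean level (TPM, log axis) for the tested helicases in red and all other tested genes in grey; 18 genes lie outside the axis range of 2 either way. The helicases lie between -0.42 and 0.39, on both sides of 0.

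DDX11 was the member that fell. It encodes a DNA helicase of sister chromatid cohesion and is set apart by function from the RNA helicases whose naming it shares. DDX11 (chromosome 12, 31073845 to 31104791, plus strand, GENCODE release 29 on GRCh38) was listed at 98.27 and 97.07 TPM under Flag and at 77.78 and 81.79 TPM under RNase H1. Both libraries labelled RNase H1 were below both labelled Flag, with means of 97.7 ± 0.849 and 79.8 ± 2.84 TPM (SD, n = 2). The log2 fold change was -0.29 ± 0.05 (SE, limma adjusted p = 0.0267, 95% interval -0.41 to -0.16). The call was lost without each single library in turn (adjusted p from 0.0969 to 0.146), with no filter on low values (0.0896) and with variances free of an intensity trend (0.107). DDX11 has pseudogene copies elsewhere in the genome, so reads may be shared and its value is uncertain. The promoter window of DDX11, shown because this is the only called member, runs from 250 bases before the start to 50 bases after it (RefSeq, GRCh38.p14, chr12:31073610-31073909, plus strand). It holds none of the 3 motifs described further on, hence no capitals.
DDX11: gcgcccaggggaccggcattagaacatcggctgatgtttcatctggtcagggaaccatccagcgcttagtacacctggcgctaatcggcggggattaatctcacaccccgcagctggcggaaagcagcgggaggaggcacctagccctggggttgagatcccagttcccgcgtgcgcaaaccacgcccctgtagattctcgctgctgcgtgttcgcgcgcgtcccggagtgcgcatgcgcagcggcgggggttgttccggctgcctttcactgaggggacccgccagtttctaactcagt

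Of the 16 helicases of ribosome synthesis, which remodel the small nucleolar and ribosomal RNAs of assembling subunits, none passed. An unadjusted p under 0.05 was reached by 3, or 18.8% against 31.3% of all tested genes. The median log2 fold change of the 16 was -0.03. Their summed level was 1185 and 1190 TPM under Flag and 1189 and 1174 TPM under RNase H1, so the group sums overlap. The values of single genes spread to both sides. DDX24, a nucleolar helicase, was listed at 167.71 and 152.3 TPM under Flag and at 186.73 and 185.21 TPM under RNase H1, with no overlap. Its log2 fold change was 0.22 ± 0.06 (limma adjusted p = 0.0595). DDX51, which acts on the large ribosomal subunit, stood at 25.73 and 30.93 TPM under Flag and at 22.95 and 21.88 TPM under RNase H1, again with no overlap but with Flag libraries 1.20-fold apart. Its log2 fold change was -0.32 ± 0.10 (limma adjusted p = 0.0924). Without Flag replicate 2 this estimate was -0.19.

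DDX54, another helicase of the large subunit, was listed at 57.59 and 75.88 TPM under Flag and at 48.8 and 61.44 TPM under RNase H1. The groups overlap, and in both the second replicate was the higher. DDX55, DDX10, DHX37 and DDX56, which act on precursors of either subunit, were lower in both libraries labelled RNase H1, at log2 -0.13, -0.09, -0.08 and -0.08, and DDX52 and DDX31 were higher in both, at 0.10 and 0.16, none of them called. DDX18, DDX27, DDX47, DDX49 and DHX33 overlapped between groups with log2 fold changes between -0.04 and 0.05. DDX47 shares 36.5% of its exon bases with APOLD1 on the same strand, so its value is uncertain. MYC, a transcription factor of growth and ribosome synthesis, was listed at 80.01 and 77.06 TPM under Flag and at 31.3 and 29.37 TPM under RNase H1. Whether its level bears on these helicases was not tested.

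DDX21 and DDX50 are paralogous nucleolar helicases whose genes lie next to each other on chromosome 10 (DDX50 at 68901278 to 68946847 and DDX21 at 68956128 to 68985073, both on the plus strand). DDX21, which acts in ribosomal RNA transcription and processing, was listed at 211.27 and 206.02 TPM under Flag and at 198.66 and 191.67 TPM under RNase H1, a log2 fold change of -0.10 ± 0.04 (limma adjusted p = 0.191). DDX50 was listed at 72.85 and 78.08 TPM under Flag and at 86.06 and 83.61 TPM under RNase H1, a log2 fold change of 0.17 ± 0.06 (limma adjusted p = 0.109). Neither passed. The DDX50 to DDX21 ratio within a library was 0.345 and 0.379 under Flag and 0.433 and 0.436 under RNase H1. Like the DDX17 to DDX5 and DDX39A to DDX39B ratios given below, and unlike that of DDX19B to DDX19A, it did not overlap between groups. Among single tested genes 60.7% separated the groups, and no such share was computed for ratios of other gene pairs. The DDX39A to DDX39B groups were barely apart, at 0.259 in Flag replicate 2 and 0.257 in RNase H1 replicate 2. With 2 libraries a group a two-sided exact permutation test of the ratio cannot go below p = 0.333, and the ratio was not tested by a fitted model. After correction for GC content, exon length and gene span DDX21 was called lower (log2 -0.19, limma adjusted p = 0.0411), and DDX50 was at 0.08.

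The promoter windows of this neighbouring pair are shown for comparison (RefSeq, GRCh38.p14, 5′ to 3′, chr10:68901065-68901364 for DDX50 and chr10:68955920-68956219 for DDX21, both on the plus strand). Capitals mark CCGGAAG, the core of many ETS factor sites. Each window holds 1 copy, 48 bases before the start in DDX50 and 60 bases before it in DDX21.
DDX50: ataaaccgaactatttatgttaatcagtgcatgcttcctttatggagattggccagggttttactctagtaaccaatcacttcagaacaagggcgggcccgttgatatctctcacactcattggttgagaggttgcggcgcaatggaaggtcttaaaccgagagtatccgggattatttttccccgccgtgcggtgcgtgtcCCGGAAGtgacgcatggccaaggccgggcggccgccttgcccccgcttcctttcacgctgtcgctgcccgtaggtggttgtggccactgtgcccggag
DDX21: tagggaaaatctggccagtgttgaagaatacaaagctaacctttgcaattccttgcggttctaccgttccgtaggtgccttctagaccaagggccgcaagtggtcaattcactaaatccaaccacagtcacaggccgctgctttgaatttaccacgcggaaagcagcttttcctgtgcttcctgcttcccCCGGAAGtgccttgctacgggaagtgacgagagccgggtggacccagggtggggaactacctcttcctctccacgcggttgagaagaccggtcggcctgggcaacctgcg

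**Figure D3:**
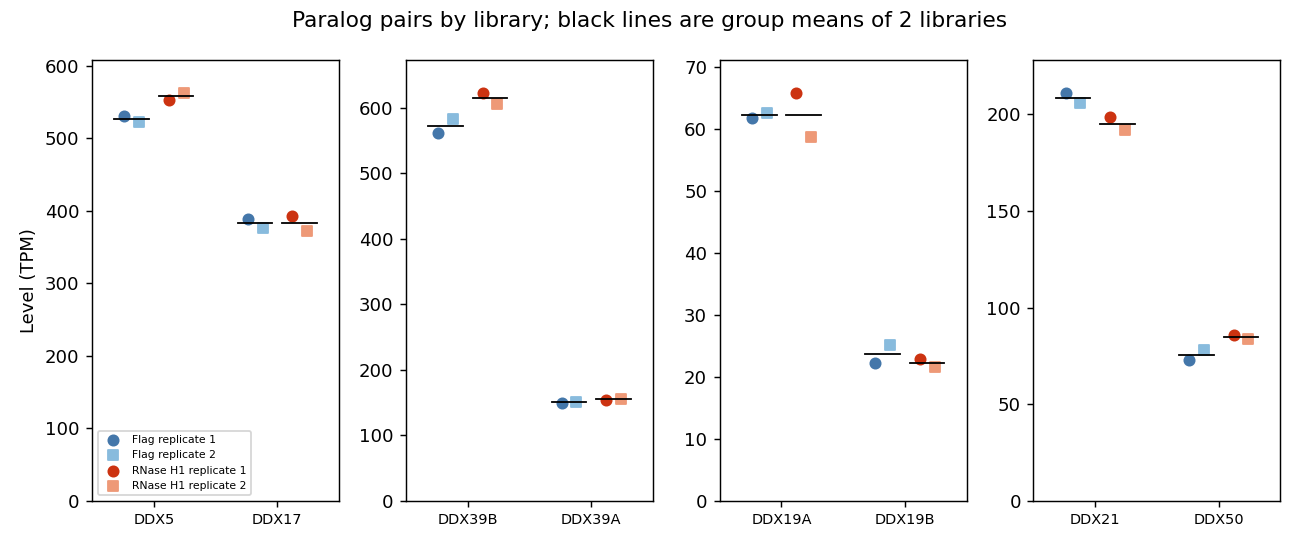
Levels (TPM) of 4 paralog pairs in each library, with group means of 2 libraries as black lines. DDX21 lies lower and DDX50 higher in the libraries labelled RNase H1, and DDX5, DDX39B and, by a small gap, DDX39A lie higher. Neither DDX17 nor either DDX19 gene separates the groups.

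Among the 9 helicases of the spliceosome, the machine that removes introns, none passed and none had an unadjusted p under 0.05. Their median log2 fold change was -0.03. The groups were separated in 3 of 9, or 33.3% against 60.7% of all tested genes and 66.6% of those of at least 10 TPM. DDX42, of the branch site complex, was higher in both libraries labelled RNase H1 (log2 0.13 ± 0.06), and DDX46 (PRP5) and DHX38 (PRP16) were lower in both (log2 -0.06 ± 0.05 and -0.14 ± 0.07). DDX23 (PRP28), DHX8 (PRP22), DHX15, DHX16 (PRP2) and DHX35 overlapped between groups with log2 fold changes between -0.05 and 0.06. DHX15, the most abundant of them, was listed at 243.09 and 245.21 TPM under Flag and at 246.18 and 233.15 TPM under RNase H1.

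DDX41, a helicase of the spliceosome that is mutated in familial myeloid leukaemia, stood out by the spread between replicates. DDX41 (chromosome 5, 177511577 to 177517469, minus strand) was listed at 250.22 and 172.31 TPM under Flag and at 129.21 and 227 TPM under RNase H1. Replicates thus differed 1.45-fold under Flag and 1.76-fold under RNase H1, and the groups overlap. The standard deviation within groups of log2(TPM + 1) was 0.48, rank 5 from the top among 1588 tested genes of at least 100 TPM, whose median was 0.04. The log2 fold change was -0.28 ± 0.28 (limma adjusted p = 0.548, 95% interval -0.96 to 0.41). It ranged from -0.68 without RNase H1 replicate 2 to 0.13 without RNase H1 replicate 1, so no direction can be given. GENCODE lists no exon of another gene over the exons of DDX41, and whether its spread is biological or technical was not tested.

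**Figure D4:**
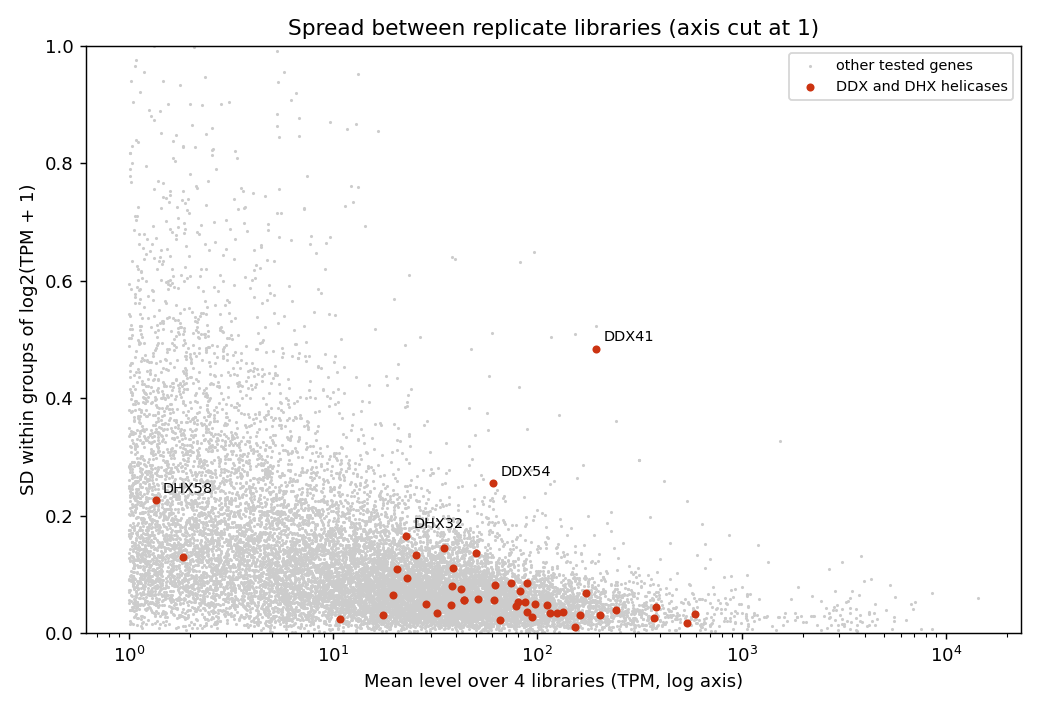
Standard deviation within groups of log2(TPM + 1) against mean level (TPM, log axis), helicases in red and other tested genes in grey, with the vertical axis cut at 1. DDX41 lies at 0.48 and DDX54 at 0.26, above the other helicases, whose values reach 0.23 in DHX58.

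The 4 helicases of mRNA export had 0 calls. DDX39B (chromosome 6, 31530219 to 31542448, minus strand) was listed at 562.09 and 582.27 TPM under Flag and at 623.24 and 605.93 TPM under RNase H1. The groups did not overlap, and the log2 fold change was 0.10 ± 0.04 (limma adjusted p = 0.125). A readthrough gene, ATP6V1G2-DDX39B, covers 29.7% of its exon bases and was listed at 0 in every library. DDX39A, its paralog, was at 149.75 and 151.05 TPM under Flag and at 153.95 and 155.83 TPM under RNase H1. The DDX39A groups did not overlap either, and its log2 fold change was 0.04 ± 0.04. The DDX39A to DDX39B ratio was 0.266 and 0.259 under Flag and 0.247 and 0.257 under RNase H1, without overlap. DDX19A and DDX19B, which release export factors from mRNA at the nuclear pore, lie side by side on chromosome 16 (70346829 to 70373383 and 70289663 to 70335283). DDX19A was listed at 61.73, 62.6, 65.85 and 58.72 TPM, and DDX19B at 22.19, 25.14, 22.89 and 21.67 TPM, in the order Flag 1 and 2, RNase H1 1 and 2. Neither separated the groups. Both genes share exon bases with a readthrough gene (23.8% of those of DDX19A and 15.7% of those of DDX19B), and their split of reads is uncertain.

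Among the cofactors of transcription and RNA processing 0 of 5 were called, 3 had an unadjusted p under 0.05, each higher, and the group had a median log2 fold change of 0.08. Those 3 are 60% of the group, against 31.3% of all tested genes (16.2% higher) and 39.2% of those of at least 10 TPM. DDX5 counts among them only narrowly, at a limma unadjusted p of 0.0499. DDX20 (Gemin3), a subunit of the SMN complex that builds spliceosomal snRNPs, was listed at 58.19 and 54.13 TPM under Flag and at 65.7 and 67.99 TPM under RNase H1. Its groups did not overlap, and at log2 0.25 ± 0.06 it just missed the threshold (limma adjusted p = 0.0520). DDX1, of the tRNA ligase complex, was at 158.62 and 152.2 TPM under Flag and at 171.09 and 168.3 TPM under RNase H1 (log2 0.13 ± 0.04, limma adjusted p = 0.118). DDX5 was at 530.43 and 522.21 TPM under Flag and at 553.05 and 563.17 TPM under RNase H1 (log2 0.08 ± 0.03, limma adjusted p = 0.159). After correction for GC content, length and span the DDX5 estimate was -0.0154. DDX17 overlapped between groups, at 388.61 and 377.06 TPM under Flag and 393.07 and 372.58 TPM under RNase H1. The DDX17 to DDX5 ratio was 0.733 and 0.722 under Flag and 0.711 and 0.662 under RNase H1, also without overlap.

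Of the 4 helicases of mRNA translation and decay none passed, and each separated the groups, as 60.7% of all tested genes and 66.6% of those of at least 10 TPM did. DHX29, which helps the small ribosomal subunit scan structured leaders, was listed at 35.88 and 33.43 TPM under Flag and at 45.97 and 39.93 TPM under RNase H1. It had the largest positive estimate among members of at least 10 TPM, log2 0.30 ± 0.09 (limma adjusted p = 0.0759). DDX6, an activator of decapping and of P-bodies, was at 87.66 and 81.2 TPM under Flag and at 97.94 and 89.4 TPM under RNase H1 (log2 0.15 ± 0.07, limma adjusted p = 0.198). DHX36, which unwinds G-quadruplexes, was lower at log2 -0.10 ± 0.06, and DHX34, of nonsense-mediated decay, at -0.11 ± 0.08. Single libraries moved these estimates. Without each in turn DHX29 ranged from 0.20 (without RNase H1 replicate 1) to 0.398 (without RNase H1 replicate 2). DHX36 ranged from -0.168 to -0.0263 (without Flag replicate 1) and DHX34 from -0.169 to -0.0449 (without RNase H1 replicate 2). DDX6 ranged from 0.0826 (without RNase H1 replicate 1) to 0.213.

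The helicases of innate immunity and of mitochondria gave no call. DDX60, an interferon-induced helicase, was listed at 1.41 and 1.5 TPM under Flag and at 2.51 and 1.94 TPM under RNase H1 (log2 0.39 ± 0.19, limma adjusted p = 0.222). DHX58 (LGP2), a regulator of RNA sensing, was at 1.29 and 2.13 TPM under Flag and at 0.97 and 1.04 TPM under RNase H1 (log2 -0.42 ± 0.23, limma adjusted p = 0.276). These estimates were the largest among the members in this fit, at the lowest tested levels, and each 95% interval includes 0. They depend on the setting: with a pseudocount of 5 TPM they were 0.16 and -0.16, and without Flag replicate 2 that of DHX58 was -0.19. DHX30 and DDX28, which act in assembly of the mitochondrial ribosome, had log2 fold changes of 0.01 ± 0.05 and -0.06 ± 0.08. The less well described DDX59, DHX32, DHX40 and DHX57 lay between -0.13 and 0.06.

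**Figure D5:**
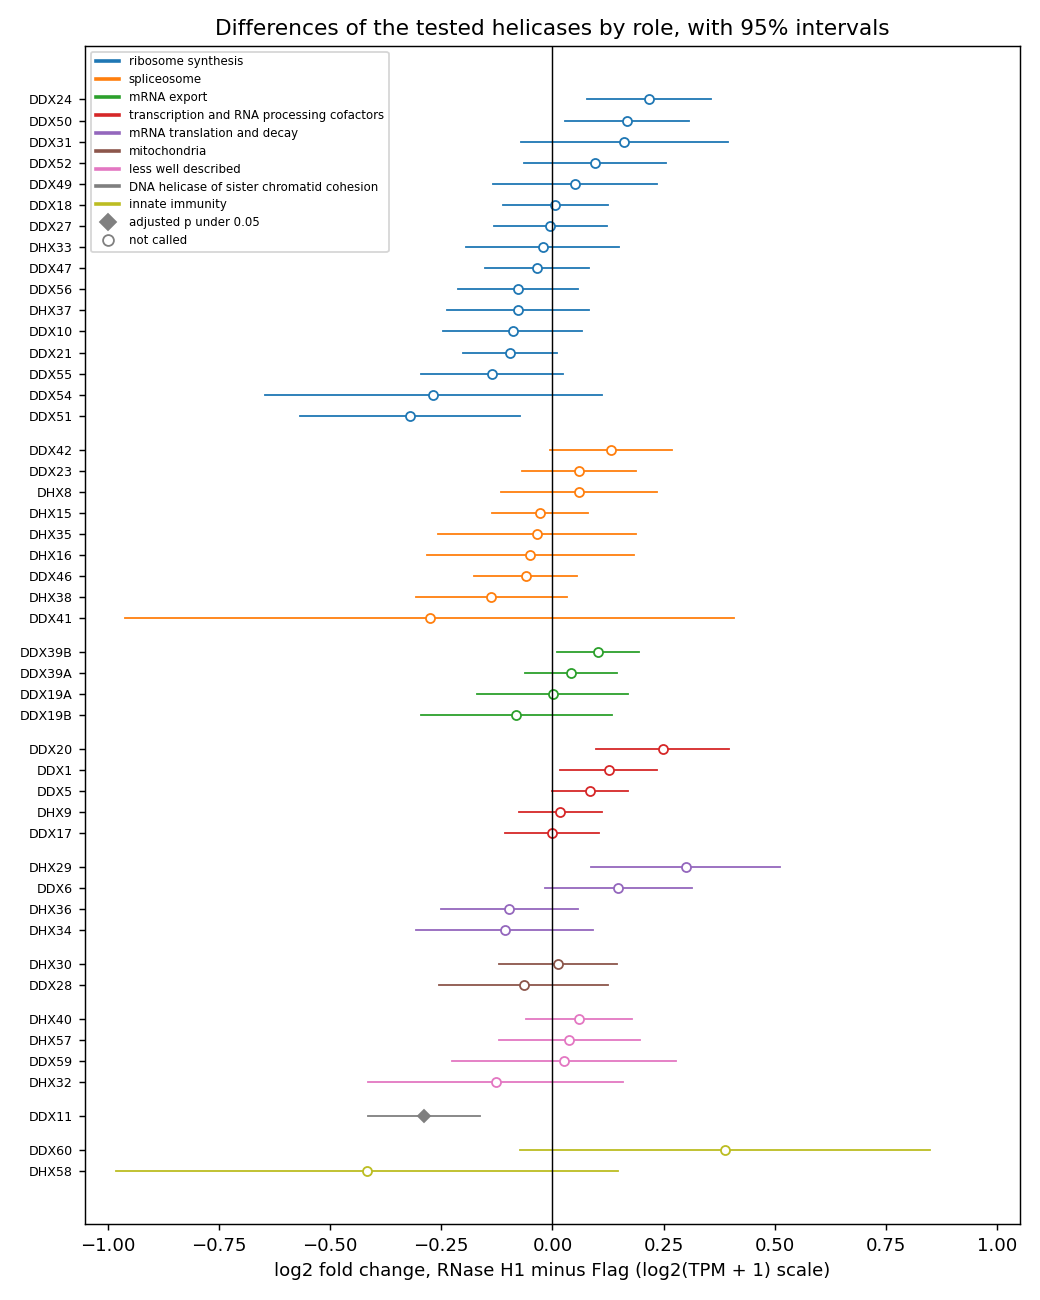
Log2 fold change of each tested helicase (RNase H1 minus Flag) with its 95% interval, grouped by role; the filled diamond is the gene with an adjusted p under 0.05, open circles are not called. Intervals that leave out 0 occur on both sides in the ribosome synthesis group, and DDX41 and DHX58 have the widest intervals.

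A list of 11 members that have been reported to act on RNA-DNA hybrids was drawn up, and it may be incomplete. It holds DDX1, DDX5, DDX17, DDX18, DDX19A, DDX21, DDX23, DDX39B, DDX41, DDX47 and DHX9. None passed, 3 had an unadjusted p under 0.05 (DDX1, DDX5 and DDX39B, each higher), which is 27.3% against 31.3% of all tested genes, and the median log2 fold change of the list was 0.01. DHX9, at log2 0.02 ± 0.04, had a 95% interval from -0.08 to 0.11.

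Relatives under other symbols were taken from 2 lists. Of 14 tested helicases related by sequence or task, 1 passed upward and 1 downward, and the median log2 fold change was 0.00131. These calls are 14.3% of the list, against 11.8% of all tested genes and 16.3% of those of at least 10 TPM. DDX3X, a DEAD-box helicase of translation, rose from 332.39 and 313.21 TPM to 399.25 and 379.08 TPM (log2 0.27 ± 0.05, limma adjusted p = 0.0267). EIF4A1, the DEAD-box subunit of the cap-binding complex, fell from 1210.21 and 1263.71 TPM to 1062.91 and 1068.47 TPM (log2 -0.21 ± 0.03, limma adjusted p = 0.0221), while its paralog EIF4A2 was at log2 0.12 ± 0.04 (limma adjusted p = 0.119). Of 22 cofactors and adaptors 1 passed, or 4.55%, below these backgrounds. It was GPATCH4, a nucleolar G-patch protein, at log2 -0.26 ± 0.05 (limma adjusted p = 0.0301). These 3 calls were lost without each single library, without the filter and without the intensity trend, with adjusted p up to 0.164. That of DDX3X was also lost under GC, length and span correction (0.0529).

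Across the 47 tested helicases, the log2 fold change and the longest transcript's GC content had a Pearson r of -0.50 and a Spearman rho of -0.39. Across the 15323 tested genes with a gene model these were -0.19 and -0.22. The points are genes of the same 4 libraries and are not independent replicates. GC content was 57.9% in DDX11, 58.7% in DDX51 and 60.6% in DDX54, and 35.7% in DDX20 and 40.3% in DHX29. Other members did not follow the correlation. DDX49 (61.7% GC) was at log2 0.05, DHX30 (59.9%) at 0.01 and DHX15 (35.2%) at -0.03. The correlation also includes DDX60 (39.1%, log2 0.39) and DHX58 (58.2%, log2 -0.42), which lie near the minimum level. With GC content fitted out, DDX11 stayed past the threshold (log2 -0.24, limma adjusted p = 0.0424), DDX20 was at 0.17 and DHX29 at 0.23. With exon length and gene span fitted out as well, DDX11 was at -0.25 (limma adjusted p = 0.0408), DDX20 at 0.14, DHX29 at 0.21 and DDX1 at 0.05.

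Promoter windows were matched by symbol for 46 of the 51 members in the RefSeq table, leaving out DDX18, DDX49, DDX52, DHX33 and DHX58. Of the 42 tested members among them, 47.6% held CCGGAAG on either strand, against 18.9% of 11138 tested genes with a window and 10.3% of all 35116 windows. CACGTG, the E-box, was in 19% against 9.98% and 7.26%. TGACGTCA, the cAMP response element, was in 11.9% against 3.33% and 1.85%. None of these motifs contains another, and no test was made of the shares. The backgrounds were not matched for level, and the members are expressed above most tested genes. Tested genes with CCGGAAG had a median level of 32.43 TPM and those without it 18.88 TPM. Among tested members these medians were 79.2 and 61.22 TPM. The first window listed for each symbol was used. In DDX5, DDX19B and DHX32, among others, it lies away from the 5′ end of the GENCODE gene span. A match is a run of letters and not a bound site.

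The copies of CCGGAAG, counted on either strand, numbered 23 in 20 members. Of these copies 12 began within 100 bases before the start and 6 after it. In DDX27 the 2 copies overlap, as matches on opposite strands to CCGGAAG. Sequences around it are shown for the highest-expressed members that hold it, apart from DDX21, whose window is shown above, because of the 3 motifs searched it was found in the most promoters, with the motif in capitals, 10 bases on either side, and each read 5′ to 3′ on the motif's strand.
DDX39B: aagcctgcaaCCGGAAGtgaaggcaga
DDX5: aaatagctcaCCGGAAGtgcgctgctc
DDX1: agaccaggggCCGGAAGcgcgcgccgc
DDX46: gaaaagccgaCCGGAAGctgccgctct
DDX47: tgtgaggtctCCGGAAGtgggtctgcg
DHX30: cgcgactccgCCGGAAGtcccgcctgc
DDX42: gctacggctcCCGGAAGgcgcctgacc
The motif was followed by tg in 8 of the 23 copies. Tested members with the motif had a median log2 fold change of -0.002041 and a range from -0.14 to 0.17. Those without it had a median of -0.01 and a range from -0.32 to 0.39. The medians were 0.03 and -0.001733 over tested genes with and without it.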

How the data were processed

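RNA from 4 HEK293T libraries, 2 per group, was extracted with TRIzol and made into libraries with a VAHTS mRNA-seq kit, per the labels' protocols. The authors deposited 1 table of TPM per gene and library, and STAR and hg38 are named in the submitters' processing notes. Not given in the sources used here are the quantification program, the annotation and whether strand was used. Columns sum to 998901 to 998955 TPM. The depth is unknown.

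The 15651 genes that reached a mean of 1 TPM were fitted as log2(TPM + 1) with limma 3.58.1 (R 4.3.3; group term, variances with an intensity trend, two-sided tests), with Benjamini-Hochberg adjustment over all 15651 and a threshold of 0.05. Log2 fold changes carry standard errors. The pseudocount of 1 shrinks fold changes of low genes. The fit was tested on simulated data. Every member is described, and of the related genes the called ones. One related gene is not reported here. Members, lists and motifs were chosen with earlier results of these data known, and CCGGAAG and TGACGTCA after values were seen. Same-numbered replicates deviated together with a correlation of 0.03 and were not treated as pairs.

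Gene spans, exons and GC content came from GENCODE release 29 (47 of 47 tested members matched, and 97.9% of tested genes), and promoter windows from RefSeq. Exons of 29 members overlap those of another gene, 8 on the same strand. Figures were drawn with matplotlib 3.10.9.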

Additional observations from a re-analysis of the deposited data

How the results depend on the processing

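The count of helicases called, 1 in the main analysis, was 0 with no filter on low values, 0 with no intensity trend, 4 with a minimum mean of 5 TPM (3 higher), and 2 after GC, length and span correction (2 lower). The last 2 settings called 8.89% and 4.26% of tested helicases, against 21.3% and 8.72% of all genes tested in them. Leaving out each library in turn gave 0 called helicases each time and 0 to 15 called genes in all, fits in which the lone library of a group is assumed to vary like the other group. At an unadjusted p under 0.05 those fits had 2 to 8 helicases. With no filter the count over all genes was 0 (5655 at an unadjusted p under 0.05) and with no intensity trend 1 (4337). With the replicate number as a block 5 helicases were called, 3 higher and 2 lower, or 10.6% against 15.6% of all tested genes; the labels give no sign that equal numbers are pairs. DDX20, DDX24 and DHX29 were called in 2 of 14 settings, a minimum mean of 5 TPM (limma adjusted p = 0.0339, 0.0373 and 0.0475) and the block, DDX54 in the block and DDX21 after GC, length and span correction. DDX11 kept its sign in 14 settings and its call in 8, between -0.32 and -0.24. Corrections for GC content were added after the data were seen.

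Estimates turned sign in 45 cases over 20 helicases that were not called. After GC correction these were DDX18 -0.0567, DDX19A -0.00596, DDX27 0.0059, DDX59 -0.0105, DHX37 0.00564, DHX40 -0.00277, DHX57 -0.00916 and DHX9 -0.026. After GC, length and span correction they were DDX18 -0.0887, DDX19A -0.032, DDX5 -0.0154, DDX59 -0.0464, DHX37 0.00363, DHX40 -0.0427, DHX57 -0.0113 and DHX9 -0.0577. Median-of-ratios scaling gave DDX18 -0.00217 and DDX19A -0.00805. Quantile normalization gave DDX17 0.0126, DDX18 -0.00568, DDX19A -0.0199, DHX30 -0.00973 and DHX35 0.00201. Leaving out each library gave ranges of -0.0389 to 0.0381 for DDX17, -0.0205 to 0.0333 for DDX18, -0.0809 to 0.0818 for DDX19A, -0.168 to 0.00509 for DDX19B, -0.0257 to 0.0165 for DDX27, -0.68 to 0.128 for DDX41, -0.0146 to 0.116 for DDX49, -0.0868 to 0.139 for DDX59, -0.0662 to 0.0119 for DHX15, -0.186 to 0.0875 for DHX16, -0.0279 to 0.051 for DHX30, -0.273 to 0.0173 for DHX32, -0.0678 to 0.0245 for DHX33, -0.00926 to 0.0859 for DHX57, -0.0143 to 0.132 for DHX8 and -0.00838 to 0.043 for DHX9. The cause of these shifts was not tested.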
